A study of Mus musculus with 6 samples.

Results

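The 5 genes described here, Cebpb, Tbx4, Zfp33b, Zfp951 and Thap6, were taken by name from a deposited table of mouse testis RNA-seq that lists 196 genes. They were brought together as genes that encode, or are named for, DNA-binding factors. Cebpb and Tbx4 encode transcription factors, Zfp33b and Zfp951 encode zinc-finger proteins, and Thap6 is annotated in the mouse as a transcribed unitary pseudogene, a gene that lost its open reading frame and has no intact copy elsewhere. Each symbol matched 1 row.

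The study asked how the testis responds to nano-antimony trioxide (Nano-Sb2O3), a flame-retardant synergist. According to its methods, C57BL/6 mice obtained at 6 weeks of age received normal saline or 7.5 mg/kg/d of Nano-Sb2O3 by intranasal instillation for 16 days, and poly(A) RNA of whole testis was sequenced from 3 mice of each group. The table holds 1 value per gene and library in TPM (a transcript's share of the library, as a level scaled by the length of each gene and the depth of each library). The labels of the 6 libraries conflict. The libraries whose names begin with con carry sample titles of high-dose mice, and the 3 others carry titles of control mice. The groups are therefore called here by the names of the mean columns of the table, CON for the libraries named con and T for the 3 others, and each direction given below is that of T against CON. By the library names T would be the high-dose group, and by the sample titles it would be the saline group, in which case every direction below inverts in terms of exposure.

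The methods give an adjusted p under 0.05 as the threshold for a changed gene, and for the genes of a pathway analysis a p under 0.05. The rows of the table share only p under 0.05 before adjustment and at least a doubling or halving in the authors' own comparison. All 5 genes had therefore been selected for a difference between these same libraries, and none of the tests below is independent of that selection. The listed genes summed to between 1347 and 1776 TPM in the CON libraries and to between 880 and 1253 TPM in the T libraries. The reads behind a TPM value are unknown, and therefore no counting error is given. No marker gene of germ cells, Sertoli cells, Leydig cells, macrophages or red blood cells from the lists used as a check is in the table (0 of 9, 0 of 7, 0 of 5, 0 of 8 and 0 of 5), so the tissue label could not be checked against them. Of 8 fat-cell markers, Fabp4, Cfd and Car3 are listed, and they summed to between 4.78 and 15.5 TPM in CON and to between 0.40 and 3.82 TPM in T. In whole-tissue RNA, fewer cells of a type and less RNA per cell cannot be told apart.

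Transcription factors of these families act in different ways. C/EBP-beta, the product of Cebpb, is a basic leucine-zipper factor that is induced by inflammatory cytokines, drives acute-phase and fat-cell genes, and in the testis is known from Leydig cells, where it acts on steroidogenic genes. T-box factors such as Tbx4 bind DNA through a conserved T-box domain, and Tbx4 is best known for the outgrowth of the hindlimb and the lung. The C2H2 zinc-finger family is the largest group of mammalian DNA-binding proteins. Each finger holds a zinc ion between a pair of cysteines and a pair of histidines, and many of its members carry a KRAB domain that recruits the corepressor Trim28 to silence retrotransposons. THAP proteins bind DNA through a zinc-coordinating domain at their start.

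By mean log2(TPM + 1), Cebpb and Tbx4 were higher in T, as were 67 of all listed genes (34.2%), and Zfp33b, Zfp951 and Thap6 were lower in T, as were 129 (65.8%). The only gene of the 5 that passed the test over all listed genes was Thap6, which was listed at 0 in all 3 T libraries. The groups did not overlap for Tbx4, which was higher in T, nor for Thap6, which was lower. Of all listed genes, the groups did not overlap for 40 that were higher in T (20.4%) and for 83 that were lower in T (42.3%). The test was limma on log2(TPM + 1), with p-values adjusted by Benjamini-Hochberg over all 196 genes, and 5 of them were higher (2.55%) and 11 lower (5.61%) in T at an adjusted p under 0.05. With a minimum difference of 1 on the log2(TPM + 1) scale added, 3 genes were higher (1.53%) and 5 lower (2.55%), and none of the 5 genes described here was among them. Without adjustment, 28 of the listed genes were higher (14.3%) and 64 lower (32.7%) at a p under 0.05. The median difference on this scale was -0.61 over the 5 genes and -0.54 over all listed genes. Each gene was also given an exact permutation test, two-sided, on the 20 ways to divide the 6 libraries into groups of 3, whose smallest possible p is 0.10.

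**Figure D1:**
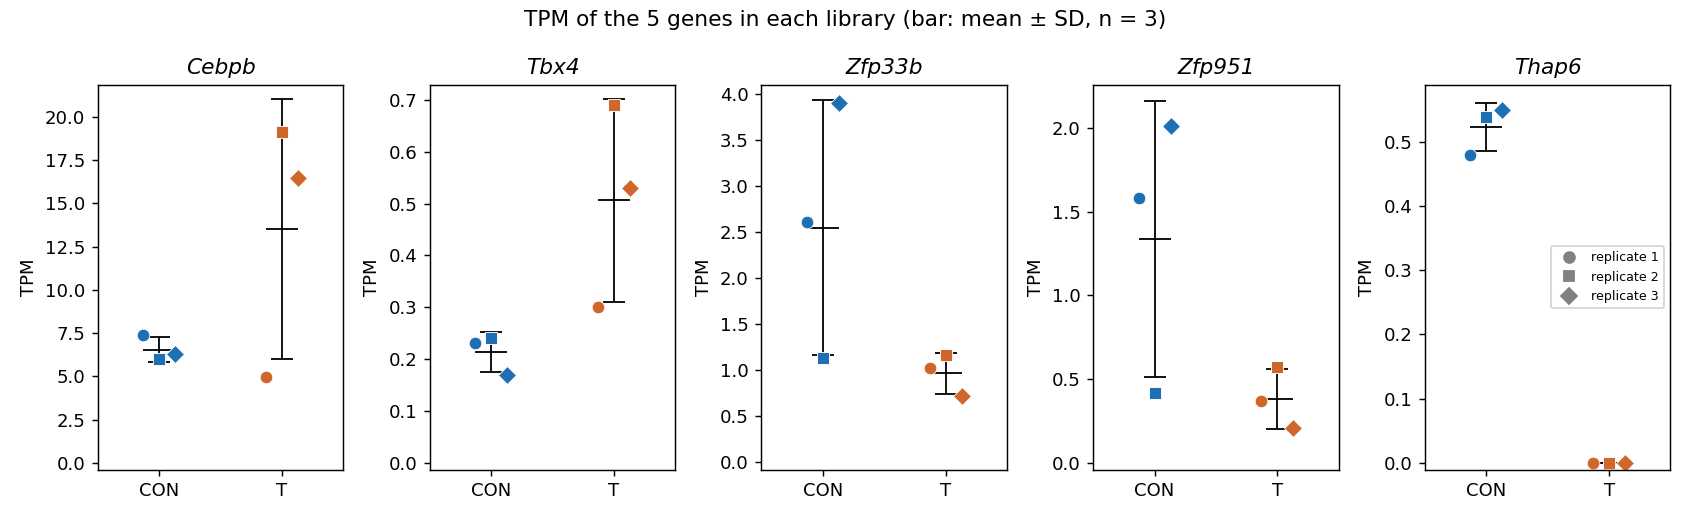
TPM of each of the 5 genes in the CON and T libraries, with a vertical scale of its own for each gene. Each symbol is 1 library, its shape the replicate number, and bars give the mean and the SD (n = 3). Tbx4 and Thap6 show no overlap between the groups, T replicate 1 sits below all CON libraries for Cebpb at 4.98 TPM, and CON replicate 2 sits among the T libraries for Zfp33b and Zfp951.

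The level of Cebpb was the highest of the 5 genes in both groups. In CON, Cebpb was followed in mean TPM by Zfp33b (2.55 ± 1.39), Zfp951 (1.34 ± 0.822), Thap6 (0.523 ± 0.0379) and Tbx4 (0.213 ± 0.0379; SD, n = 3 each). Cebpb lay above Zfp33b and Thap6 above Tbx4 in all CON libraries, whereas the ranges of Zfp33b and Zfp951, and those of Zfp951 and Thap6, overlapped. In T, the order was Cebpb, Zfp33b, Tbx4, Zfp951 and Thap6. There the ranges of Tbx4 (0.30 to 0.69 TPM) and Zfp951 (0.21 to 0.57 TPM) overlapped, and the lowest Zfp33b value, 0.72 TPM, lay just above the highest of Tbx4. By mean TPM among the 196 genes, Cebpb ranked 23rd in CON and 12th in T. Zfp33b ranked 52nd and 80th, and Zfp951 84th and 116th. Thap6 ranked 131st and 172nd, and Tbx4 159th and 107th. The median over the listed genes was 0.992 TPM in CON and 0.648 TPM in T.

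Cebpb (ENSMUSG00000056501) is a gene of a single exon on the plus strand of chromosome 2 (GRCm39, 167530835 to 167532338). The libraries had 7.39, 5.98 and 6.28 TPM of it in CON and 4.98, 19.11 and 16.46 TPM in T. T replicates 2 and 3 lay well above all CON libraries, and T replicate 1 lay below all of them, so the groups overlapped. The means were 6.55 ± 0.743 TPM in CON and 13.5 ± 7.51 TPM in T (SD, n = 3 each), a ratio of 2.06. On the log2(TPM + 1) scale T was higher by 0.77 (SE 0.49, limma adjusted p = 0.198), and in the exact permutation test p was 0.40. The test was therefore not passed. The spread between libraries was unequal. The coefficient of variation (SD over mean) was 11.3% in CON, the 8th smallest of the 186 genes that have one there. In T it was 55.6%, the 79th smallest of 171. Without T replicate 1 the difference was 1.32 (limma adjusted p = 0.0238, in a range of 0.0238 to 0.440 over all alternatives). In that fit 50 listed genes were higher in T without overlap, against 40 with all libraries. Leaving out any library can only keep or raise this count, and each other omission gave 42 to 52. Those called higher, with a minimum difference of 1, were 6 without T replicate 1, against 3 with all libraries. Each other omission gave 1 to 13.

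T replicate 1 was the lowest T library for 50 of the 196 genes (25.5%), not more than the 1 in 3 of a library that does not stand out. Its summed level of the 3 listed fat-cell markers, 0.40 TPM, was the lowest of the 6 libraries. The part of that in the Cebpb values was not tested. Median-ratio scaling, in which the median over the listed genes of the ratio to the gene's geometric mean sets a factor for each library, gave Cebpb values of 5.05, 4.56 and 4.22 in CON and of 6.22, 21.2 and 21.3 in T. On this scale the groups did not overlap, and T was higher by 1.45 on the log2 scale (exact permutation p = 0.10). The factors of this scaling ran from 1.31 to 1.49 in CON and from 0.773 to 0.903 in T, and they come from genes that had been selected for their difference. They moved the median difference of all listed genes from -0.54 to -0.23, and the genes without overlap from 40 higher and 83 lower to 49 higher (25.0%) and 31 lower (15.8%).

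Of the 1504 exon bases of Cebpb, 312 (20.7%) also lie in an exon of Peds1, a plasmalogen-forming desaturase gene on the opposite strand. All 312 bases, from 167531431 to 167531742, fall within the coding sequence of Cebpb. Reads from there can be ascribed to 1 gene only if the strand is kept. The labels name a stranded library kit and the methods a kit that need not keep the strand, and the counting setting was not given in the sources used here. Peds1 is not listed in the table. None of the 50-base windows of the Cebpb exon recurs in the genome (0 of 1455).

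The listed genes whose profile over the 6 libraries was most like that of Cebpb were Gm16867, Gm20431 and Rpl35a-ps6. Likeness was measured as the Euclidean distance between log2(TPM + 1) profiles, each centred and scaled to unit SD, among the 195 other genes, and these 3 distances were 0.361, 0.473 and 0.656. Gm16867 had 1.55, 1.13 and 1.59 TPM in CON and 0.80, 4.94 and 5.20 TPM in T, so that it shares with Cebpb the low value of T replicate 1. Gm20431 was listed at 0 in all CON libraries and in T replicate 1, and had 7.99 and 5.91 TPM in T replicates 2 and 3. Rpl35a-ps6, a processed pseudogene of a ribosomal protein gene, had 0, 0 and 1.42 TPM in CON and 0, 150 and 331 TPM in T. In all 3 of them, as in Cebpb, only T replicates 2 and 3 stood above CON, a likeness that follows from their choice by profile. Gm20431 is also the only listed gene within 1 Mb of Cebpb, 27.4 kb before it on the opposite strand. The exons of Gm20431 consist of sequence of the neighbouring genes Peds1 (29.3% of its exon bases) and Ube2v1 (70.7%), so its reads cannot be fully separated from theirs.

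Genes that work with C/EBP-beta were looked for in the table by a list. None of the 17 partners and inputs of C/EBP-beta is listed. Of 17 acute-phase, fat and steroid genes linked to it, Hp, Fabp4 and Cfd are listed. All 3 had lower mean TPM in T, the opposite direction to Cebpb. Lower in T was also the direction of 129 of the 196 listed genes (65.8%), by mean log2(TPM + 1). Hp, which encodes the haemoglobin-binding plasma protein haptoglobin, had 2.23, 0.93 and 0.68 TPM in CON and 0.21, 0.58 and 0.74 TPM in T (limma adjusted p = 0.151, exact permutation p = 0.20). Fabp4, the fatty-acid carrier of fat cells, had 3.60, 1.88 and 2.69 TPM in CON and 0.31, 1.43 and 0.62 TPM in T (limma adjusted p = 0.0708). Cfd, the complement protease adipsin, had 9.43, 2.20 and 3.73 TPM in CON and 0.09, 1.80 and 1.09 TPM in T (limma adjusted p = 0.0918). Car3, a carbonic anhydrase abundant in fat and the only other fat-cell marker in the table, had 2.50, 0.70 and 1.57 TPM in CON and 0, 0.59 and 0.26 TPM in T (limma adjusted p = 0.0841). For the last 3 genes the groups did not overlap, and T replicate 1 was the lowest library for each of them. Of all listed genes, 83 (42.3%) were lower in T without overlap.

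Tbx4 (ENSMUSG00000000094) lies on the plus strand of chromosome 11 (85776887 to 85806923), and its canonical transcript has 9 exons. Its values were 0.23, 0.24 and 0.17 TPM in CON and 0.30, 0.69 and 0.53 TPM in T. All 3 T libraries were higher than all CON libraries, with the lowest T value just above the highest CON value. The means were 0.213 ± 0.0379 TPM in CON and 0.507 ± 0.196 TPM in T (SD, n = 3 each), a ratio of 2.38. A difference on the log2(TPM + 1) scale is small for a gene at this level whatever its ratio, and on that scale T was higher by 0.30 (SE 0.14, limma adjusted p = 0.127, exact permutation p = 0.10). The test was not passed, and the adjusted p stayed between 0.0770 and 0.255 under all 11 alternatives tried. With a pseudocount of 0.1 TPM in place of 1, the difference was 0.91. Tbx4 was the lowest of the 5 genes in CON and ranked 159th of the 196 listed genes there by mean TPM.

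As for Cebpb, T replicate 1 was the lowest and T replicate 2 the highest of the T libraries for Tbx4. The profile distance between both genes was 0.934. The nearest profiles to Tbx4 were those of Gm49388 (0.278), Gm20431 (0.616) and Gcat (0.759). Gm49388 had 1.47, 1.67 and 1.10 TPM in CON and 1.92, 4.02 and 3.25 TPM in T, with the same order of the libraries as Tbx4 within both groups. Such likeness follows from its choice by profile. Gcat, which encodes a mitochondrial enzyme of threonine breakdown, had 0, 0.16 and 0 TPM in CON and 0.25, 2.06 and 0.54 TPM in T. None of the 10 listed partners of Tbx4 is in the table, no other annotated gene overlaps its exons, and none of its 3899 exon windows of 50 bases recurs in the genome.

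Zfp33b and Zfp951 lie near each other on chromosome 5. Zfp33b (ENSMUSG00000120166) runs from 104719508 to 104747911 on the plus strand, and Zfp951 (ENSMUSG00000072774) from 104960515 to 105008190 on the minus strand, so that their 3′ ends face each other across 213 kb. The 4 annotated genes between them are lncRNA genes or a processed pseudogene, and none is in the table. Spp1, the gene of the secreted phosphoprotein osteopontin that the study centres on, lies 130 kb before Zfp33b, and no other listed gene lies within 1 Mb of the pair. No annotated gene overlaps the exons of either. Chromosome 5 as a whole holds 6.67% of the listed genes with an annotation (13 of 195) and 6.05% of all annotated genes.

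**Figure D2:**
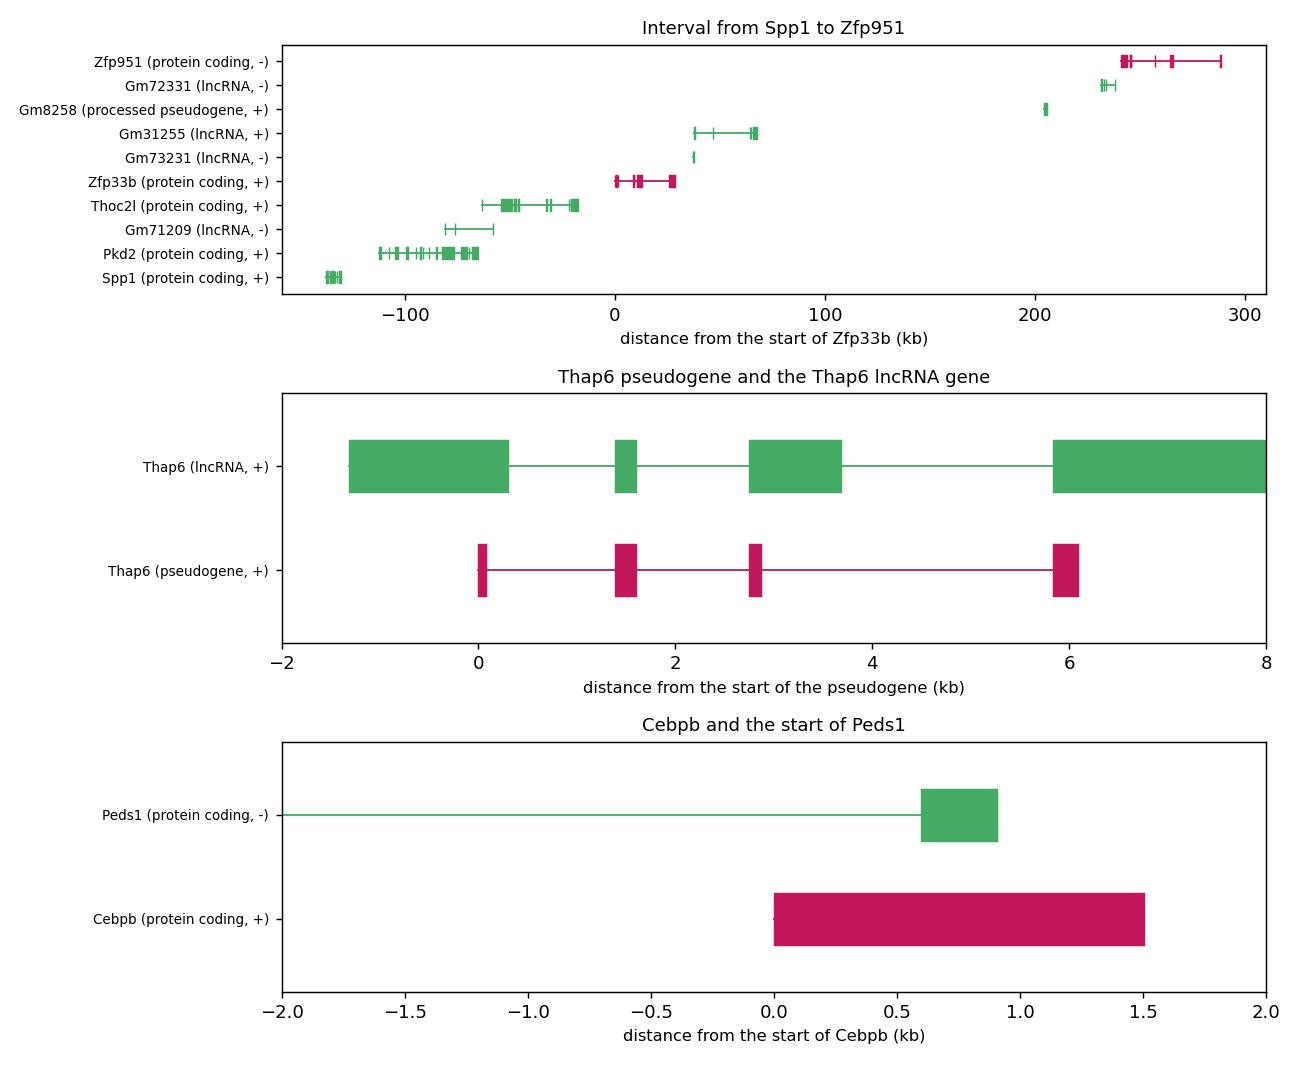
Exons (boxes) and introns (lines) of the annotated genes, on GRCm39, with strand and gene type beside each name and genes described here in red. Top, the interval from Spp1 to Zfp951 in kb from the start of Zfp33b. Middle, the 4 exons of the Thap6 pseudogene, each of which falls inside an exon of the lncRNA gene also named Thap6, which continues past the right edge. Bottom, Cebpb and the start of Peds1, whose first 312 bases overlap the Cebpb exon and which continues past the left edge.

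The pair is closely related. In the coding sequences of GENCODE, 1130 of 1308 aligned bases are identical (86.4%), and the predicted proteins of 443 and 436 residues hold 9 and 10 matches to the C2H2 pattern. The sequences around their starts are closer still. The RefSeq table gives 1 start for Zfp33b and 2 for Zfp951, and of the latter the one whose window had more bases identical to Zfp33b was taken. The windows from 250 bases before to 50 bases after these starts are shown for this likeness. Most of each window lies before the start, so the likeness does not tell how far reads of the pair can be told apart. The 4 aligned bases that differ are in capitals. Of 288 aligned bases, 284 are identical (98.6%), with 1 gap base inside the alignment. With the other start of Zfp951, whose window overlaps this one, 267 of 270 aligned bases are identical (98.9%). Zfp33b is read from chr5:104571422-104571721 on the plus strand and Zfp951 from chr5:104859978-104860277 on the minus strand of GRCm38.p6, the build of that sequence table.
Zfp33b: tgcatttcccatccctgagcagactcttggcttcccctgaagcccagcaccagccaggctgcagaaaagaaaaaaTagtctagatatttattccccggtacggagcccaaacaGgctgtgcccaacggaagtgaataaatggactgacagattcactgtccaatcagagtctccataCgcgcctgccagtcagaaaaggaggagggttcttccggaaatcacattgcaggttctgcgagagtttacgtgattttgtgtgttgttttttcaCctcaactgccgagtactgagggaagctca
Zfp951: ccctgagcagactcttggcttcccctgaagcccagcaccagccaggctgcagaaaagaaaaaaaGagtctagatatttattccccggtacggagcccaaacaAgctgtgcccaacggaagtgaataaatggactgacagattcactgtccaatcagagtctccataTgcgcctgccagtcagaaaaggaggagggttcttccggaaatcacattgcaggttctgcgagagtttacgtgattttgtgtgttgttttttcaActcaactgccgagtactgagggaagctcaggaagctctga

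Zfp33b had 2.61, 1.13 and 3.90 TPM in CON and 1.02, 1.16 and 0.72 TPM in T. The CON libraries were spread widely, and CON replicate 2 lay within the range of the T libraries, which lay close together. The means were 2.55 ± 1.39 TPM in CON and 0.967 ± 0.225 TPM in T (SD, n = 3 each), a ratio of CON to T of 2.63. On the log2(TPM + 1) scale the difference was -0.78 (SE 0.33, limma adjusted p = 0.113, exact permutation p = 0.20). Of the 9 pairs of a T and a CON library, T was lower in 8.

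Zfp951 had 1.58, 0.42 and 2.01 TPM in CON and 0.37, 0.57 and 0.21 TPM in T. The order of the 6 libraries was that of Zfp33b, with CON replicate 3 highest, CON replicate 1 next, and CON replicate 2 below T replicate 2. The means were 1.34 ± 0.822 TPM in CON and 0.383 ± 0.180 TPM in T (SD, n = 3 each), a ratio of CON to T of 3.49. On the log2(TPM + 1) scale the difference was -0.69 (SE 0.32, limma adjusted p = 0.120, exact permutation p = 0.20), and T was lower in 8 of the 9 pairs of libraries. Neither gene passed the test. The CON libraries were spread widely for both, with coefficients of variation of 54.4% for Zfp33b and 61.5% for Zfp951.

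For both genes the overlap rested on CON replicate 2 and T replicate 2. Without CON replicate 2 the groups did not overlap. The difference was then -1.10 for Zfp33b (limma adjusted p = 0.0353) and -1.02 for Zfp951 (limma adjusted p = 0.0331). Without T replicate 2 the groups did not overlap either, but the test was not passed. The difference was then -0.85 for Zfp33b (limma adjusted p = 0.156) and -0.79 for Zfp951 (limma adjusted p = 0.156). Over all 196 listed genes, those lower in T without overlap were 102 without CON replicate 2, against 83 with all libraries. Leaving out any library can only keep or raise such a count, and each other omission gave 89 to 98. Those called lower, with a minimum difference of 1, were 22 without CON replicate 2, against 5 with all libraries. Each other omission gave 2 to 14. Over all alternatives the adjusted p ran from 0.0353 to 0.382 for Zfp33b and from 0.0331 to 0.305 for Zfp951. CON replicate 2 was the lowest CON library for 62 of the 196 genes (31.6%), ties not counted. Such a count of ranks cannot tell whether CON replicate 2 stands out. Its summed level of the 3 listed fat-cell markers, 4.78 TPM, was the lowest of CON. The part of that in the values of the pair was not tested. After median-ratio scaling, the differences were -0.30 for Zfp33b (exact permutation p = 0.50) and -0.36 for Zfp951 (exact permutation p = 0.30). With a pseudocount of 0.1 TPM they were -1.18 and -1.41, and the median of all listed genes was -1.20.

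Zfp33b was above Zfp951 in all 6 libraries, with ratios of 1.65, 2.69 and 1.94 in CON and of 2.76, 2.04 and 3.43 in T. Their summed level was 4.19, 1.55 and 5.91 TPM in CON and 1.39, 1.73 and 0.93 TPM in T (exact permutation p = 0.20). The distance between their profiles was 0.304, which made Zfp951 the second nearest of 195 genes to Zfp33b and Zfp33b the third nearest to Zfp951. Both lists of nearest genes also held the lncRNA gene 4933416O17Rik, with 7.69, 3.12 and 9.11 TPM in CON and 2.34, 3.14 and 2.12 TPM in T. The remaining neighbours were Glrb, a glycine receptor subunit gene, for Zfp33b (0.36, 0.12 and 0.48 TPM in CON, 0.11, 0.12 and 0 TPM in T) and Gm49981, an lncRNA gene, for Zfp951 (1.21, 0.12 and 1.39 TPM in CON, 0, 0.25 and 0 TPM in T). In each of these genes CON replicate 2 was far below the other CON libraries, which follows from their choice by profile.

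Shared sequence between the pair is limited at the length of a read. Of the 50-base windows of the Zfp33b exons, 44.2% recur somewhere in the genome, but only 283 of 5213 (5.43%) occur in the Zfp951 exons. For Zfp951, 19.6% recur and 286 of 5184 (5.52%) occur in Zfp33b. With windows of 150 bases, the read length, no window was shared by the pair, 1.46% of those of Zfp33b and 0 of the 4794 of Zfp951 recur in the genome. Windows across exon junctions were not counted, and how the reads that fit several places were treated was not given in the sources used here.

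Zfp33b and Zfp951 were not the only C2H2 genes in the table. Of the 80 listed genes with a coding sequence, 6 matched the pattern of a C2H2 finger, a pair of cysteines 2 to 4 residues apart and a pair of histidines 3 to 5 residues apart with 12 residues between. The 4 others, Gm11007, Gm14391, Gm14403 and Gm14443, have between 9 and 16 matches and lie on chromosome 2 between 174934557 and 177204572. This search was added after the values of the pair had been seen. All 6 genes were lower in T by mean log2(TPM + 1), as were 129 of the 196 listed genes (65.8%), and their median difference was -0.71. Of the 6, 3 showed no overlap between the groups, near the share among all listed genes that were lower without overlap (42.3%), and limma gave no adjusted p under 0.05 for any of them.

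Gm14391 had 2.22, 2.89 and 2.65 TPM in CON and 0.32, 1.76 and 0.22 TPM in T, without overlap (difference -1.12, limma adjusted p = 0.0794). Gm14403 had 0.80, 0.46 and 0.91 TPM in CON and 0, 0.12 and 0.07 TPM in T, also without overlap (difference -0.69, limma adjusted p = 0.0506). Gm14443 had 0.65, 0.51 and 0.68 TPM in CON and 0.33, 0.47 and 0.09 TPM in T, and its groups lay close together without overlap (difference -0.32, limma adjusted p = 0.131). The other gene of chromosome 2, Gm11007, overlapped, with 1.76, 0.53 and 1.49 TPM in CON and 0, 0.70 and 0.35 TPM in T. CON replicate 2 was the lowest CON library for all of the 6 genes but Gm14391, and for 62 of the 196 listed genes (31.6%). The values of Gm11007 and Gm14391 are uncertain, since 100% and 95.7% of their 150-base windows recur in the genome, against 0% for Gm14403 and 3.44% for Gm14443. None of the 12 corepressor genes of KRAB zinc-finger proteins on the list is in the table.

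**Figure D3:**
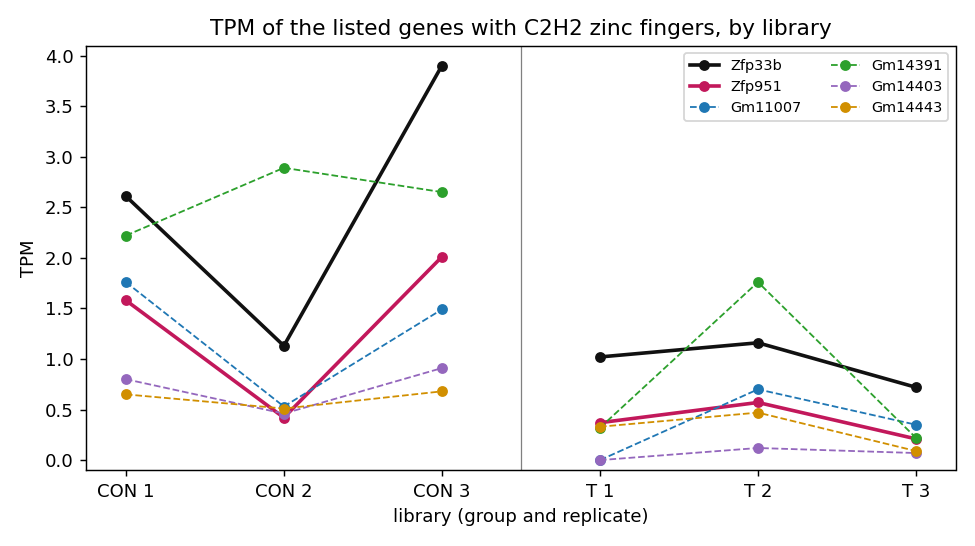
TPM of the 6 listed genes with C2H2 fingers in each library, with lines joining the values of a gene within a group. The libraries have no order. Zfp33b (black) and Zfp951 (red) dip together in CON replicate 2, to 1.13 and 0.42 TPM, and Gm14391 is the only gene that does not have its lowest CON value there.

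Thap6 (ENSMUSG00000102644) was the most even of the 5 genes within CON. It had 0.48, 0.54 and 0.55 TPM in the CON libraries and was listed at 0 in all 3 T libraries. The CON mean was 0.523 ± 0.0379 TPM (SD, n = 3), and the coefficient of variation of 7.23% was the 4th smallest of 186 genes. On the log2(TPM + 1) scale Thap6 fell by 0.61 in T (SE 0.11, limma adjusted p = 0.0373), and in the exact permutation test p was 0.10. With a pseudocount of 0.1 TPM the difference was -2.64. The T values, all 0, had no spread, and the difference stayed at -0.61 when any T library was left out. No fold change is given, because TPM keeps no read count from which a bound could be set. A value of 0 in all T libraries and above 0 in all CON libraries was shared by 14 listed genes (7.14%), and 3 showed the reverse. The call depended on the fit. With the replicate number as a block the adjusted p was 0.117, and without CON replicate 1, CON replicate 3, T replicate 1 or T replicate 3 it was 0.0614, 0.0505, 0.0813 and 0.117, in a range of 0.00782 to 0.117 over all alternatives.

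The annotation of Thap6 bears on this value. The pseudogene lies on the plus strand of chromosome 5 of GRCm39, from 92111565 to 92117654, 12.6 Mb before Zfp33b, with 4 exons of 667 bases in all. Every one of these bases also lies in an exon of an lncRNA gene on the same strand that carries the same symbol (ENSMUSG00000121865, 92110248 to 92170798) and is not in the table. Reads from the pseudogene therefore have no exon base that is only its own, and their assignment rests on the counting, which the sources used here do not describe for such overlaps. None of the 50-base windows within its exons recurs elsewhere in the genome (0 of 471).

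The first 2 exons of the pseudogene are shown because they hold the start of its former reading frame. Capitals mark the ATG at its first base and the first stop codon in that frame, TGA. Exon 1 is chr5:92111565-92111644 and exon 2 is chr5:92112955-92113163, both on the plus strand of GRCm39.
Thap6 exon 1: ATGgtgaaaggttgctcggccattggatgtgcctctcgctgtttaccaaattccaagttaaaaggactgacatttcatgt
Thap6 exon 2: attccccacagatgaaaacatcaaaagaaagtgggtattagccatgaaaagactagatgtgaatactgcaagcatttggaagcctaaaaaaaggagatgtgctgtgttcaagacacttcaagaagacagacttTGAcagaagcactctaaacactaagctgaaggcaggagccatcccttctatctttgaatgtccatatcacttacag

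In the joined exons the stop codon begins at base 214, after 71 codons. The nearest profiles to Thap6 were those of Gm56938 (0.402), Rpl35a-ps2 (0.472) and Gm28158 (0.482). Gm56938, an lncRNA gene, had 0.44, 0.53 and 0.51 TPM in CON and 0.08, 0.17 and 0.14 TPM in T. Gm28158, a pseudogene on chromosome Y, had 0.44, 0.68 and 0.45 TPM in CON and was listed at 0 in T. Rpl35a-ps2, a processed pseudogene of a ribosomal protein gene, had 404, 215 and 102 TPM in CON and was also listed at 0 in T. Because each profile was scaled to unit SD, genes of very different level can be near each other by this measure.

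A search of the table for other DNA-binding factor families by symbol gave Rhox2b and, through its first letters alone, Glipr1l3, whose name does not denote such a factor. Rhox2b, a member of the X-linked reproductive homeobox cluster, had 1.52, 0.83 and 1.01 TPM in CON and 0.32, 0.10 and 0.48 TPM in T. All T libraries lay below all CON libraries, with means of 1.12 ± 0.358 TPM in CON and 0.300 ± 0.191 TPM in T (SD, n = 3 each). The difference on the log2(TPM + 1) scale was -0.70 (SE 0.19, limma adjusted p = 0.0708, exact permutation p = 0.10). CON replicate 2 was the lowest CON library for Rhox2b, as for 62 of the 196 listed genes (31.6%). Glipr1l3 had 62.6, 65.6 and 66.3 TPM in CON and 29.9, 50.1 and 19.1 TPM in T (limma adjusted p = 0.0841).

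**Figure D4:**
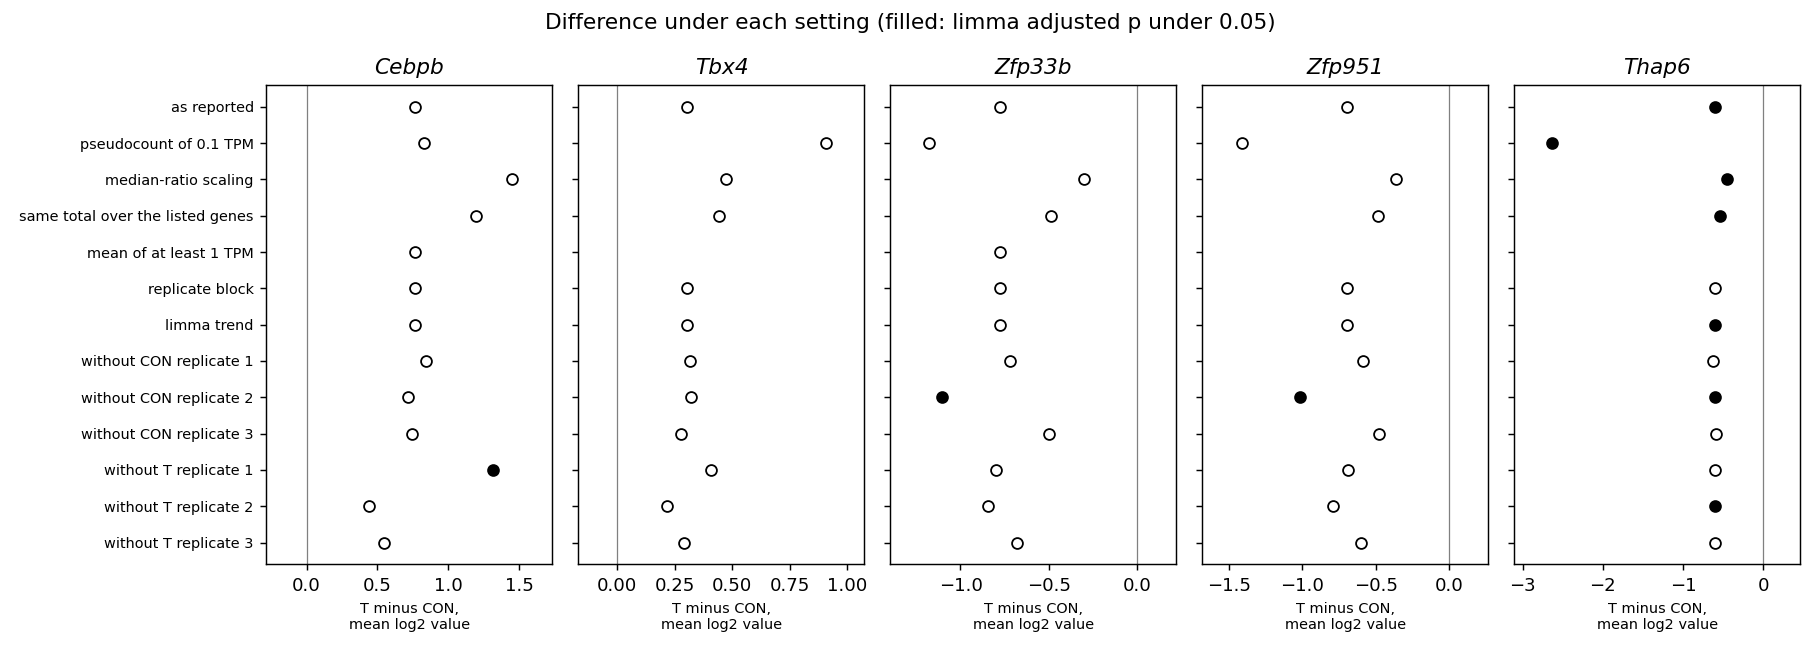
Difference between the groups (mean of T minus mean of CON, on the log2 scale) of each of the 5 genes under the reported fit and each alternative, with a horizontal scale of its own for each gene. Filled points have a limma adjusted p under 0.05, and the grey line is 0. All points of a gene lie on the same side of 0, Thap6 is filled in 7 of 12 fits, and Cebpb, Zfp33b and Zfp951 are each filled in 1 fit, that without T replicate 1 or CON replicate 2. A setting without a point left the gene out.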

How the data were processed

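The authors deposited 1 TPM value per gene and library, with group means, a fold change, its log2, p-values and a call from their own comparison. These comparison columns were used only to state the limits that the rows share. TPM was taken as the unit because the axes of the study's heatmap name it, although the methods name FPKM. Reads were aligned to GRCm39 with HISAT2 per the methods; the counter is HTSeq per the methods and RSEM per the labels. All 6 value columns were matched to a library (0 unmatched). The group means of the table equal the means of the 3 libraries assigned to each group. Replicate numbers come from sample titles and belong to different mice.

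Groups were compared on log2(TPM + 1) with limma 3.58.1 (R 4.3.3), p-values were adjusted by Benjamini-Hochberg over all 196 genes, and the step was tested on simulated data. Single genes were also compared by an exact two-sided permutation test. Alternatives were a pseudocount of 0.1 TPM, median-ratio scaling, scaling to the same total, a minimum mean of 1 TPM, a limma trend, a replicate block, the unadjusted p and the omission of each library.

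The 5 genes and all lists were chosen with earlier results of these data known. Named genes were the 5, listed genes of the fixed factor, pathway and marker lists, and the 3 nearest profiles of each; the C2H2 search and the genes it found were added after values were seen. Positions, exons and coding sequences came from GENCODE M39 on GRCm39, and promoter windows from RefSeq, which held 4 of the 5 genes. Calculations used Python 3.11.15, numpy 2.4.6, pandas 2.3.3 and biopython 1.88, and figures matplotlib 3.10.9.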

Additional observations from a re-analysis of the deposited data

How the results depend on the processing

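All 5 genes kept their direction under all alternatives tried. Cebpb passed the test without T replicate 1 (difference 1.32, limma adjusted p = 0.0238), and without single libraries its difference ran from 0.44 to 1.32. Zfp33b and Zfp951 passed without CON replicate 2 (differences -1.10 and -1.02), and their ranges without single libraries were -1.10 to -0.50 and -1.02 to -0.48. That of Tbx4 was 0.22 to 0.41, with no change of call. Thap6 lost its call under the replicate block (-0.61, limma adjusted p = 0.117) and without 4 of the 6 libraries (range -0.63 to -0.59). A minimum mean of 1 TPM left out Tbx4, Zfp951 and Thap6, so that they have no value there. A pseudocount of 0.1 TPM, by its construction, enlarged the differences of the 4 genes lower in level than Cebpb. They came to 0.91 for Tbx4, -1.18 for Zfp33b, -1.41 for Zfp951 and -2.64 for Thap6, with no change of call. The other causes were not tested.

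The number of listed genes called higher in T, 3 in the reported fit, was 17 after median-ratio scaling, 12 after scaling to the same total, 20 with the unadjusted p, 2 with the replicate block, and 1 to 13 without single libraries. The number called lower, 5 in the reported fit, was 12 with a pseudocount of 0.1 TPM, 2 after median-ratio scaling, 2 with a minimum mean of 1 TPM, 1 with the replicate block, 30 with the unadjusted p, and 2 to 22 without single libraries, highest without CON replicate 2. Scaling to the same total left 45 genes higher and 43 lower without overlap, against 49 and 31 after median-ratio scaling. Same-numbered libraries deviated together with correlations of -0.0255 to 0.0969, which gave no sign of pairing by replicate number. These correlations come from selected genes, and a batch shared by number was not tested. What a loss under the block reflects was not tested either.

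With 3 libraries a group and genes selected for their difference, the precision of low values such as those of Tbx4, at 0.17 to 0.69 TPM, cannot be given, because TPM keeps no read counts.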
